A study of Rattus norvegicus with 26 samples.

Results

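Gene expression in fed white adipose tissue, labelled inguinal, was set against gene expression in fed liver, in male inbred Long-Evans (Turku/AB) rats. The comparison took the control arrays of day 4 alone, 4 of adipose tissue and 4 of liver, out of 26 arrays in the series. All 31042 probe sets for rat transcripts entered, after 57 control probe sets of 31099 were left out. The adipose group and the liver group had the same history. The rats were 11 to 15 weeks old when the experiment began, had free access to pelleted feed, and were dosed once with the vehicle, 4 mL/kg of corn oil, on day 0. Both tissues were taken on day 4. The other arrays of the series came from feed-restricted rats and from rats kept to day 10. Each array held RNA of 1 animal. Whether any rat gave both an adipose and a liver array is not settled by the labels, so p-values measure only the spread between arrays. Adipose RNA was prepared with a kit for lipid-rich tissue (RNeasy Lipid Tissue) and liver RNA with another (RNeasy Mini). The adipose arrays and the day 4 liver arrays were also normalized in separate sets. Tissue, kit and set therefore cannot be told apart. The depot is known from the labels alone. Genes of mesothelium were high on all 4 adipose arrays. Some posterior HOX genes, among them Hoxa9 and Hoxa10, differed on 1 of them while others did not, as described with those genes. Whether the depot was the same in every rat was not tested.

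White adipose tissue stores triglyceride in large droplets within adipocytes, releases fatty acids when energy is short, and secretes hormones such as leptin and adiponectin. Blood vessels, fibroblasts, nerves and immune cells surround the adipocytes in a collagen-rich stroma. The liver is built mainly of hepatocytes, which secrete most plasma proteins, make bile acids, turn ammonia into urea, release glucose and oxidise drugs and hormones. Sinusoidal endothelium, Kupffer cells (the liver's resident macrophages) and vitamin A-storing stellate cells line and support the hepatocyte plates.

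Values are log2 expression values per probe set, and a difference is adipose tissue minus liver. Since the sets were normalized apart, a gene is called higher in a tissue only where its difference reached 3 log2 units (8-fold) with the same sign under 3 scalings, which were the deposited values, the values minus each array's median, and the values after quantile normalization of the 8 arrays together. The last keeps only the ranks within an array. The call also needs an adjusted p below 0.05 from limma on those ranks. For a gene with several probe sets, the brightest one over the 8 arrays stands for it. Values below 3.5 are called near background, a level that lies above the median of each liver array. A difference against such a value is taken as a lower bound. In bulk tissue, fewer cells of a type and less RNA per cell cannot be told apart.

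By this rule 2098 probe sets were higher in adipose tissue (6.76% of those tested) and 1053 were higher in liver (3.39%). Over 14217 named genes the counts were 1110 higher in adipose tissue (7.81%) and 696 higher in liver (4.90%), or 12.7% in either direction. The counts given for gene lists are to be read beside these shares. The limma p-value alone would have passed 27142 probe sets (87.4%), and the 2 groups of arrays did not overlap in 83.9% of probe sets and 85.4% of genes, so neither separates large differences from small ones. The balance between the directions depended on the scaling. Of the calls, 79.8% were higher in adipose tissue and 20.2% in liver with the deposited values alone. These shares were 65.3% and 34.7% after subtracting array medians, 55.1% and 44.9% after quantile normalization, and 66.6% and 33.4% under the joint rule. The array medians lay 0.84 apart, at 4.01 to 4.06 in adipose tissue and 3.17 to 3.24 in liver. On an adipose array 8117 to 8730 probe sets reached a value of 8, against 4864 to 4976 on a liver array.

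**Figure D1:**
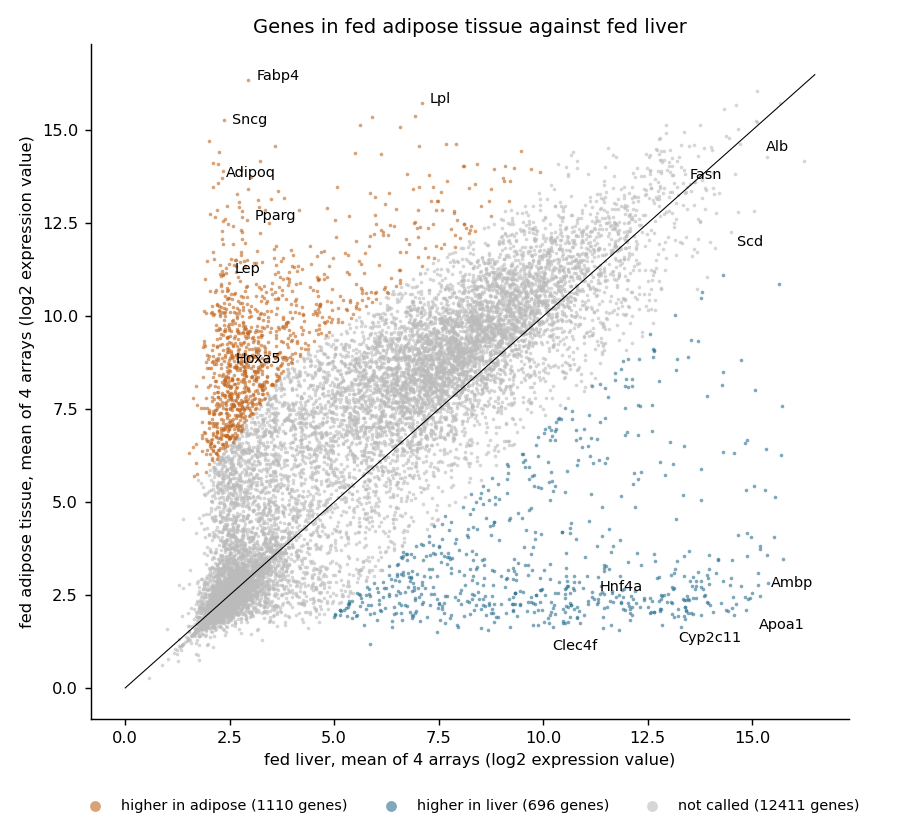
Mean log2 expression value of each of 14217 genes in fed adipose tissue (vertical axis, 4 arrays) against fed liver (horizontal axis, 4 arrays), with 1110 genes called higher in adipose tissue in orange, 696 called higher in liver in blue and the rest in grey. Fabp4 and Sncg stand at the top left, Ambp and Apoa1 at the bottom right, and Fasn lies close to the line of equal values.

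Differences between separately normalized sets of the same tissue can be seen with the fed livers of day 10. These formed a set of their own, with powdered in place of pelleted feed. They cannot show how large the effects of set and kit are between adipose tissue and liver. Between those 5 arrays and the 4 fed livers of day 4, only 27 probe sets (0.087%) differed by 3 log2 units or more, and the largest difference was 4.98. Several of the 27 belong to genes of daily rhythm, among them Bmal1 (4.68 higher at day 10), Dbp (-4.43), Noct (-3.85), Nfil3 (3.20) and Cry1 (3.05). Between adipose tissue and liver 5222 probe sets (16.8%) differed by as much in the deposited values, and the largest difference was 13.4.

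**Figure D2:**
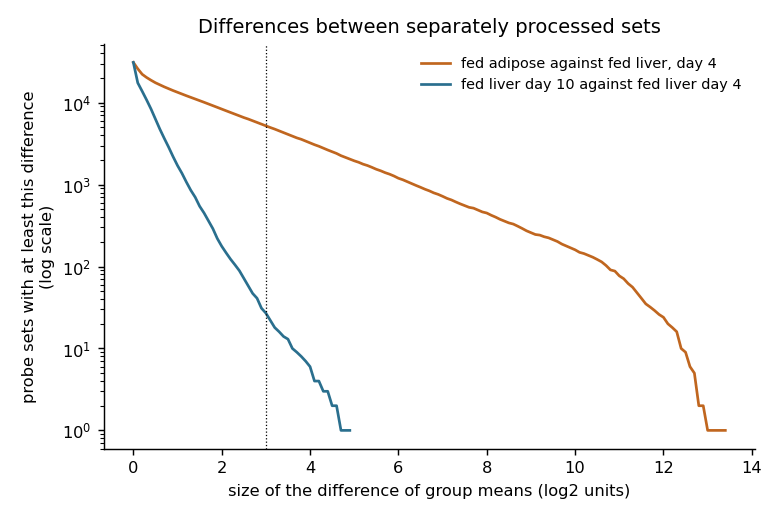
Number of probe sets (vertical axis, log scale) whose group means differ by at least the size on the horizontal axis (log2 units), for fed adipose tissue against fed liver (orange) and for fed liver of day 10 against fed liver of day 4 (blue), with a dotted line at 3. At 3 log2 units the curves stand at 5222 and 27 probe sets.

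Some arrays stood apart within their tissue. Correlations over all probe sets were 0.991 to 0.997 within adipose tissue, 0.996 to 0.998 within liver and 0.713 to 0.727 between them. Adipose array 1 had the highest mean of hepatocyte markers, though not every marker followed. Alb, given further on, was not highest there, and Hnf4a stood at 2.03 to 2.07 over the adipose arrays. The mean over 11 hepatocyte markers was 6.85 there and 5.27 to 5.46 on the other 3, against 14.65 to 14.76 in liver. Ahsg (fetuin-A, a plasma protein) read 5.66, 2.57, 2.75 and 2.87 on the adipose arrays, against 15.71, 15.74, 15.76 and 15.78 on the liver arrays. Serpina1 (the protease inhibitor alpha-1-antitrypsin) read 6.43, 3.20, 3.39 and 3.20 in adipose tissue, against 14.86 to 15.03 in liver.

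Adipose array 3 held more smooth muscle transcript. Its mean over 8 smooth muscle markers was 11.14, against 7.92 to 8.66 on the other 3 adipose arrays and 4.22 to 4.32 in liver. Actg2, an actin of visceral smooth muscle, read 4.72, 4.63, 11.37 and 7.16 in adipose tissue, and Ccl21, a chemokine of lymphatic vessels, read 5.79, 4.63, 10.90 and 4.92. In liver they read 3.53 to 3.61 and 2.01 to 2.06. Of 7 lymphatic markers, listed after the values had been seen, Ccl21, Mmrn1 (8.09, against 2.30 to 3.19 on the other adipose arrays) and Reln (4.82, against 2.38 to 2.47) stood far higher on array 3. Lyve1 (10.30, against 9.47 to 9.94) and Flt4 (6.82, against 6.37 to 6.48) were slightly higher there, Prox1 was near background at 2.24, and Pdpn was lowest there (9.47, against 9.58 to 11.20). Genes that pattern the posterior body were also listed after the values had been seen. Of these, Hoxa9 and Hoxa10 read 7.26 and 8.08 on array 3, against 2.38 to 2.47 and 3.03 to 3.53 on the others. Hoxc9 was higher there too (4.80, against 3.13 to 3.55). Hoxa11 (2.31), Hoxd9 (5.01) and Hoxd10 (2.73) lay within the range of the other adipose arrays, and Hoxc8 was lowest on array 3 (7.31, against 7.36 to 8.06). Dmrt2, a transcription factor, was the reverse, at 3.67 on array 3 and 8.15 to 9.13 on the others. Without adipose array 1 the counts were 2046 probe sets higher in adipose tissue and 1050 higher in liver, and without adipose array 3 they were 2029 and 1049.

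Liver arrays differed in single genes. Hamp, the iron hormone hepcidin, read 11.37, 3.49, 12.03 and 12.17 in liver, with array 2 near background, against 1.66 to 1.71 in adipose tissue. On liver array 2 the red cell transcripts Alas2 (8.97, against 5.56 to 5.95 on the other livers) and Hbb (14.27, against 11.94 to 12.33) were high. Cyp1a1, the classic target of the aryl hydrocarbon receptor, read 8.26, 9.53, 14.00 and 5.31 in liver, against 2.43 to 4.27 in adipose tissue. On liver array 1 Cish, an inhibitor of cytokine signalling, stood at 9.83, against 3.32 to 4.28 on the other livers, and Nr0b2 (SHP, a repressor of bile acid synthesis) at 5.94, against 9.94 to 10.70.

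**Figure D3:**
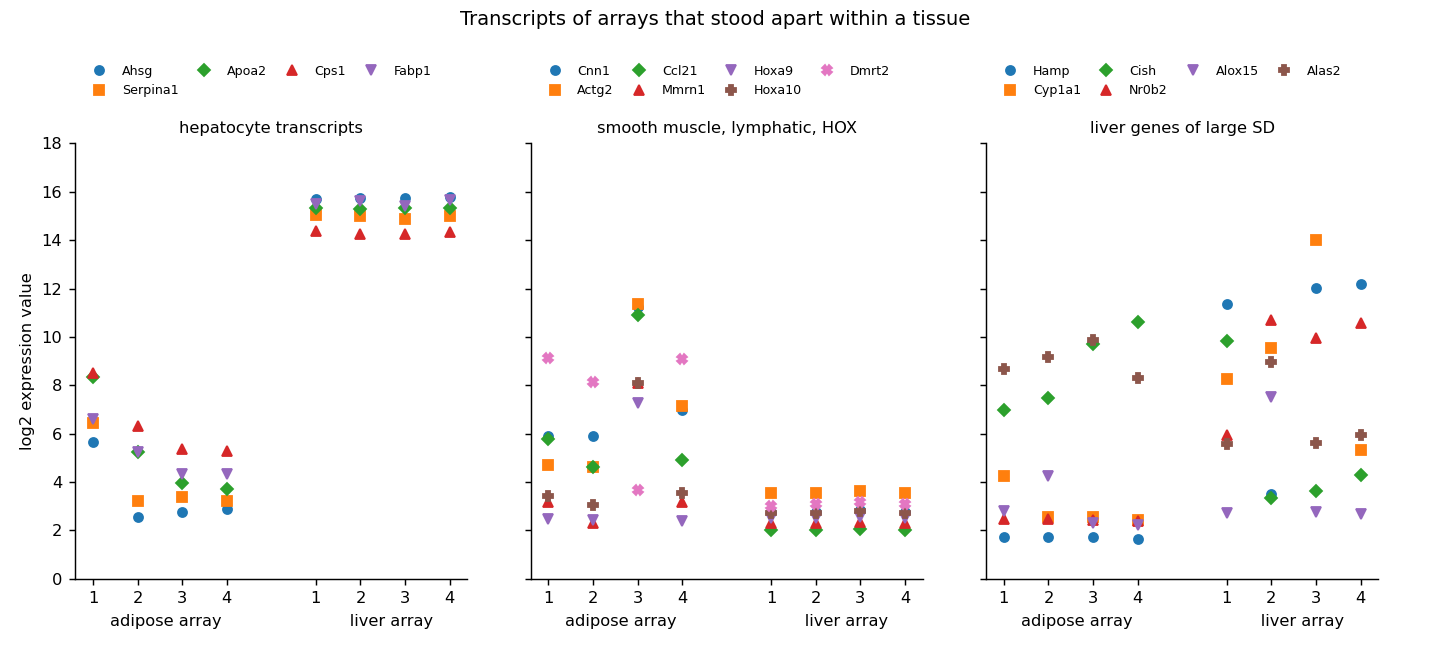
Log2 expression values (vertical axis) on each of the 4 adipose and 4 liver arrays (horizontal axis) for transcripts in which 1 array stands apart, with 1 symbol per gene. Adipose array 1 is highest for Ahsg and Serpina1, adipose array 3 for Cnn1, Actg2, Ccl21, Mmrn1, Hoxa9 and Hoxa10, and liver array 2 is low for Hamp.

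Both labels matched the tissues' defining markers. Among adipocyte markers 10 of 11 measured genes were higher in adipose tissue and 0 in liver, against 7.81% of all genes. Fabp4, the fatty acid carrier of adipocytes, read 16.39, 16.28, 16.40 and 16.37 in adipose tissue, against 2.89, 2.93, 3.01 and 2.94 in liver. Fabp4 had the highest mean of all named genes in adipose tissue and the largest difference of all named genes (13.41, adjusted p = 7.69e-14 by limma on the quantile-normalized values). Adiponectin (Adipoq) averaged 14.10 ± 0.056 in adipose tissue and 2.22 ± 0.020 in liver (SD, n = 4 each, as throughout), and leptin (Lep) averaged 11.16 ± 0.40 and 2.41 ± 0.014. Gpd1, which makes glycerol 3-phosphate, was the marker not called, at 14.33 in adipose tissue and 12.56 in liver. Among hepatocyte markers 9 of 11 were higher in liver and 0 in adipose tissue. Albumin (Alb) was not among them. Alb read 14.19, 13.81, 14.17 and 14.59 in adipose tissue, against 16.20, 16.27, 16.21 and 16.25 in liver, a difference of -2.04. The other marker not called was Rbp4, the retinol carrier that adipocytes also secrete, at 14.30 in adipose tissue and 15.36 in liver.

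Markers of neighbouring tissues were mostly near background. Of 12 skeletal muscle markers 0 were called, and 9 averaged below 3.5 in adipose tissue and 10 in liver. Myh1 was an exception, with 13.40 to 13.87 in adipose tissue and 12.68 to 12.79 in liver. T and B cell markers such as Cd3d (2.20 in adipose tissue and 2.23 in liver) and Ms4a1 (1.65 and 1.85) were near background in both tissues. The basal keratins Krt5 and Krt14 averaged 2.43 and 3.07 in adipose tissue, against 2.50 and 2.86 in liver. Of 8 brown fat markers 1, Cidea, was higher in adipose tissue, a share near the 7.81% of all genes. Ucp1, the uncoupling protein that defines brown fat, stood at 2.21 in adipose tissue and 2.34 in liver.

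The genes with the largest differences toward adipose tissue included fat storage genes and genes of cell structure. Behind Fabp4 came Sncg (gamma-synuclein), with 15.22 to 15.31 in adipose tissue and 2.33 to 2.39 in liver, and S100b, a calcium-binding protein of glia and adipocytes, with 14.56 to 14.97 and 1.99 to 2.03. Plin1 and Plin4, coat proteins of the lipid droplet, differed by 12.04 and 11.36. Prkar2b, a regulatory subunit of the cAMP-dependent kinase that turns lipolysis on, averaged 13.47 ± 0.29 in adipose tissue and 2.10 ± 0.022 in liver. Igfbp5, a binding protein for insulin-like growth factors, differed by 11.58, and Pfkfb3, which makes the glycolysis activator fructose 2,6-bisphosphate, by 10.74. The carbonyl reductase Cbr3, the membrane proteins Nnat, Clmp and Mmd, the lectin Lgals1 and caveolin 1 (Cav1) completed the 15 largest with Adipoq, and these 6 had differences of 10.73 to 12.16. Of the 15 only Lgals1 (3.42 to 3.77) and Cav1 (2.53 to 3.61) had any liver array above 3.5.

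Of 18 genes of the droplet coat and lipolysis 9 were higher in adipose tissue and 1 in liver, with a median difference of 4.14, beside 0.49 for all genes. The liver count was 2 without liver array 3 and against the fed livers of day 10. Adrb3, the beta-3 adrenergic receptor that starts the cascade, read 11.28, 11.55, 10.86 and 11.73 in adipose tissue, against 2.64 to 2.69 in liver. Pnpla2 (ATGL, which removes the first fatty acid) averaged 13.79 in adipose tissue and 7.28 in liver, and Lipe (hormone-sensitive lipase) 12.94 ± 0.27 and 2.72 ± 0.024. Mgll, the monoglyceride lipase of the last step, was not called, at 11.52 in adipose tissue and 7.48 in liver. Npr3, which clears natriuretic peptides, differed by 7.94. Plin2, a droplet coat found in most cells, was 9.10 in adipose tissue and 11.98 in liver and was not called.

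Against 7.81% and 4.90% of all genes, 5 of 12 adipose signals were higher in adipose tissue and 0 in liver. Besides Adipoq and Lep these were Cfd (the complement protease adipsin), Lpl (lipoprotein lipase) and the chemokine Ccl2. Cfd averaged 15.10 ± 0.11 in adipose tissue and 6.58 ± 0.31 in liver, a difference of 8.52 in the deposited values and of 7.68 under the scaling that made it smallest. Ccl2 read 8.47 to 9.19 in adipose tissue and 2.88 to 3.09 in liver. Agt (angiotensinogen, 13.60 in adipose tissue and 13.14 in liver) and Rarres2 (chemerin, 13.46 and 13.87) were high in both tissues and not called.

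Of 13 insulin signalling genes 3 were higher in adipose tissue and 0 in liver, against 7.81% and 4.90% of all genes. Slc2a4 (GLUT4, the insulin-responsive glucose transporter) read 9.85, 9.55, 9.95 and 10.65 in adipose tissue, against 2.19 to 2.33 in liver. Trarg1, which regulates GLUT4 traffic, averaged 12.86 ± 0.23 in adipose tissue and 2.20 ± 0.020 in liver, and Grb10, an adaptor that restrains the insulin receptor, 10.89 ± 0.44 and 2.48 ± 0.030. The count was 7 with deposited values alone, 6 after subtracting array medians and 6 at a size threshold of 2. It was 5 against the fed livers of day 10, 6 in restricted rats and 5 without liver array 4. The insulin receptor itself (Insr) stood at 9.45 in adipose tissue and 8.56 in liver and was not called. Nor were its substrates Irs1, Irs2 and Irs3 (1.41, 3.45 and 4.33), the kinases Akt1 and Akt2 (1.05 and 1.93), Pik3r1 (4.12), Foxo1 (4.22) or Pde3b (2.79). Irs2, Irs3, Pik3r1 and Foxo1 passed 3 log2 units toward adipose tissue in the deposited values but not under every scaling.

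Of 15 adipose and mesenchymal transcription factors 5 were higher in adipose tissue and 0 in liver. The median difference was 3.65, and the shares over all genes were 7.81% and 4.90%. The adipose count was 8 with deposited values alone and 8 at a size threshold of 2. Pparg, the master regulator of the adipocyte, read 12.67, 12.52, 12.19 and 13.01 in adipose tissue, against 2.87 to 2.95 in liver. Ebf1 and Ebf2, early factors of the adipocyte lineage, differed by 8.87 and 7.34, and Pbx3 by 4.83. Zfp423, a preadipocyte factor, differed by 8.26, a call not kept when the median of its 4 probe sets was used. Cebpa, a factor that hepatocytes and adipocytes both need, averaged 13.50 in adipose tissue and 12.79 in liver and was not called.

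Of 27 collagens and matrix genes 21 were higher in adipose tissue and 0 in liver, with a median difference of 5.61. Col15a1, a basement membrane collagen, read 12.36, 12.39, 12.27 and 13.22 in adipose tissue, against 2.31 to 2.37 in liver. Lum (lumican, a collagen-binding proteoglycan) differed by 10.24, Lama4 (a laminin of vessel and adipocyte basement membrane) by 8.72, Postn (periostin) by 8.49 and the gelatinase Mmp2 by 7.60. The fibrillar chains Col1a1 and Col1a2 averaged 12.71 and 13.31 in adipose tissue, against 5.98 and 6.30 in liver. Fibronectin (Fn1), which hepatocytes release into plasma, was 12.08 in adipose tissue and 13.71 in liver, and Col18a1 was 9.12 and 11.23, neither of them called.

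Cytoskeletal and surface genes of mesenchyme behaved alike. There 11 of 14 were higher in adipose tissue and 0 in liver, with a median of 6.58. Anxa1, a phospholipid-binding annexin, averaged 15.35 ± 0.14 in adipose tissue and 5.89 ± 0.22 in liver, and S100a6, a calcium-binding protein, 13.46 ± 0.40 and 5.06 ± 0.21. The intermediate filament vimentin (Vim) was 14.63 in adipose tissue and 7.92 in liver. Fibroblast and preadipocyte markers gave 6 of 11 higher in adipose tissue, against 7.81% of all genes. Mfap5 (a microfibril protein) differed by 9.85, Dcn (decorin) by 8.24 and Pi16 by 6.92. Pi16 ranged from 8.73 to 10.69 among the adipose arrays.

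General endothelial markers were higher in adipose tissue for 4 of 9 genes and in liver for 0, beside 7.81% and 4.90% of all genes. The adipose count was 8 with deposited values alone and 2 at a size threshold of 4. Pecam1 (4.28), Tie1 (4.39), Egfl7 (3.63) and Tek (3.03) leaned toward adipose tissue without a call. Cldn5, a tight junction protein, read 9.27, 9.14, 10.21 and 9.73 in adipose tissue, against 2.37 to 2.41 in liver. Vwf, the clotting factor that endothelium stores, read 7.64, 7.99, 10.78 and 8.15, against 2.61 to 2.66. Esam and Emcn averaged 8.99 and 9.84 in adipose tissue, against 3.98 and 5.18 in liver. Emcn was not called without adipose array 3, and Esam was not called against the fed livers of day 10. Kdr, the VEGF receptor, was not called and overlapped between the tissues, with 9.50 to 10.32 in adipose tissue and 10.15 to 10.36 in liver. Gpihbp1, which anchors lipoprotein lipase on capillary endothelium, averaged 10.22 ± 0.32 in adipose tissue and 2.36 ± 0.026 in liver. Against 4.90% of all genes, 1 of 4 markers of liver sinusoidal endothelium was higher in liver. This was the scavenger receptor Stab2, with 1.72 to 1.77 in adipose tissue and 7.54 to 7.71 in liver, while its relative Stab1 was 9.76 in adipose tissue and 6.91 in liver and was not called. The other two, Lyve1 and Fcgr2b, differed by -0.07 and -1.54 and were not called.

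Smooth muscle genes were higher in adipose tissue for 5 of 8 members with a median of 4.75, and for 3 of 8 without adipose array 3. The share over all genes was 7.81%. Tagln (transgelin) read 9.62, 9.84, 13.29 and 10.46 in adipose tissue, against 2.27 to 2.33 in liver. Myh11, the smooth muscle myosin, read 9.19, 9.26, 12.59 and 10.43, against 2.65 to 2.97. Cnn1 (calponin) read 5.88, 5.90, 11.25 and 6.98, against 2.75 to 2.83, and its call was lost in 6 of the 8 fits that left out 1 array. In each of the 3 genes the array labelled adipose 3 was highest. The 2 tissues did not overlap in these genes, as in 85.4% of all genes.

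Against 7.81% of all genes, 3 of 6 nerve and Schwann cell markers were higher in adipose tissue. These were S100b, the myelin protein Pmp22 (12.67 ± 0.18 in adipose tissue and 2.80 ± 0.18 in liver) and myelin basic protein Mbp (11.37 ± 0.24 and 6.07 ± 0.12). Sox10, the factor that defines Schwann cells, stood at 2.77 in adipose tissue and 2.55 in liver, and Gfap at 1.56 and 1.75.

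Markers of mesothelium, the sheet that lines body cavities and the organs and fat within them, were present in all 4 arrays labelled inguinal. This list was drawn up after the values had been seen. Mesothelin (Msln) read 11.31, 11.27, 9.58 and 10.19 in adipose tissue, against 2.57 to 2.64 in liver. Wt1, a transcription factor of mesothelium, read 11.33, 11.24, 9.84 and 10.27, against 2.83 to 2.92. Of 8 measured members 7 were higher in adipose tissue, the others being Upk1b (7.91), Krt19 (6.81), Lrrn4 (6.24), Bnc1 (5.47) and Gpm6a (4.18), and Krt7 (3.71) was not called. Adipose arrays 3 and 4 had the 2 lowest values in all 8. Whether mesothelial cells were part of these pieces of fat was not tested.

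HOX genes, which keep a record of position along the body axis, were near background in liver. Of 16 measured, 15 averaged below 3.5 in liver and 3 did so in adipose tissue. Adipose tissue was higher for 5 and liver for 0, beside 7.81% and 4.90% of all genes, with a median difference of 2.32. Hoxd8 read 8.76, 8.68, 8.98 and 9.52 in adipose tissue, against 2.23 to 2.27 in liver, and Hoxa5 read 8.91, 8.85, 8.05 and 9.16, against 2.42 to 2.49. Hoxb2, Hoxc8 and Hoxc5 differed by 5.48, 4.42 and 4.20. Hoxc5 was not called without adipose array 2 or without adipose array 4, and the list's count was 3 without adipose array 2.

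The largest differences toward liver were proteins secreted into plasma. Ambp, the precursor of alpha-1-microglobulin and bikunin, read 2.60, 2.45, 2.45 and 2.41 in adipose tissue, against 15.20, 15.23, 15.19 and 15.13 in liver (difference -12.71, adjusted p = 7.32e-13 by limma). Then came the protease inhibitors Pzp, Serpina3l and Serpina3c, C-reactive protein (Crp), Itih4, Apoa1, the fibrinogen chain Fgb, plasminogen (Plg), Apob, Ahsg, antithrombin (Serpinc1) and prothrombin (F2). The call for Fgb was lost when the median of its 3 probe sets was used. Of the 15 largest only Ass1, an enzyme of the urea cycle, and Cyp2c11, the male-specific P450 of rat liver, are not plasma proteins. Their differences ran from -12.76 to -12.10. On adipose arrays 2 to 4 every one of the 15 lay below 3.

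Of 16 coagulation and fibrinolysis genes 15 were higher in liver and 0 in adipose tissue, with a median difference of -10.76. F2 read 2.37 to 2.66 in adipose tissue and 14.48 to 14.60 in liver. Protein S (Pros1), which endothelium also makes, was the one not called, at 9.65 in adipose tissue and 11.57 in liver.

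Among complement components and regulators, of 17 genes 13 were higher in liver, with a median of -8.93. They included the terminal component C9 (2.59 to 2.69 in adipose tissue and 13.70 to 13.93 in liver), the regulators Cfi and C4bpa (-11.58 and -10.96) and the lectin Mbl2 (-11.23). C3, the central component, averaged 7.58 in adipose tissue and 15.72 in liver. The alternative-pathway protease Cfd was the 1 gene higher in adipose tissue. The classical-pathway proteases C1r (12.37 in adipose tissue and 11.70 in liver) and C1s (12.99 and 13.35) were high in both and not called.

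Lipoproteins had parts in both tissues. Of 18 genes 13 were higher in liver, with a median of -10.02, and 3 in adipose tissue. The structural protein Apob read 2.18 to 2.39 in adipose tissue and 14.52 to 14.69 in liver, and Apoc2, the cofactor of lipoprotein lipase, averaged 1.92 ± 0.017 and 13.36 ± 0.024. Lipoprotein lipase (Lpl) read 15.73, 15.62, 15.73 and 15.83 in adipose tissue, against 7.26, 7.32, 6.88 and 6.92 in liver, a difference of 8.63 in the deposited values and of 7.80 under the scaling that made it smallest. Gpihbp1 and the phospholipid transfer protein Pltp (3.98) were the other two. Apoe was 12.83 in adipose tissue and 15.05 in liver and was not called.

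Acute phase and transport proteins were higher in liver for 14 of 16 genes and in adipose tissue for 0, with a median of -10.81. Serpina3n was an exception, at 12.77 in adipose tissue and 14.13 in liver. A2m, which rat liver makes in inflammation, stood near background in both, at 2.55 in adipose tissue and 2.85 in liver.

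Amino acid metabolism was a liver pattern for 24 of 27 genes and an adipose pattern for 0, with a median of -8.09. In the urea cycle, Ass1 read 2.39 to 2.53 in adipose tissue and 14.80 to 14.91 in liver, and Otc averaged 2.05 and 12.66. Cps1, the enzyme that commits ammonia to urea, read 8.50, 6.30, 5.35 and 5.28 in adipose tissue, with array 1 highest, against 14.26 to 14.37 in liver. Hpd and Tdo2, which act in the breakdown of tyrosine and tryptophan, differed by -11.72 and -11.38, and the methyl donor enzyme Bhmt by -11.12. The aminotransferase Gpt was even, at 11.81 in adipose tissue and 11.45 in liver, and was not called. In glucose production 2 of 5 genes were higher in liver, against 4.90% of all genes. Fbp1 (fructose 1,6-bisphosphatase) read 1.62 to 1.66 in adipose tissue and 13.22 to 13.38 in liver, and Slc37a4, the glucose 6-phosphate transporter, averaged 8.30 ± 0.51 and 12.12 ± 0.15. Pck1, which serves glucose production in liver and glycerol production in fat, read 13.87, 13.87, 14.08 and 13.60 in adipose tissue, against 14.10, 14.27, 13.82 and 14.05 in liver.

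Bile acid genes were higher in liver for 14 of 16 and in adipose tissue for 0, with a median of -8.24. Cyp7a1, the rate-limiting enzyme, averaged 2.01 in adipose tissue and 12.09 in liver. The conjugating enzymes Slc27a5 and Baat differed by -11.64 and -11.42, and the uptake carriers Slc10a1 and Slco1b2 by -10.99 and -10.60. Of 21 microsomal P450 genes 18 were higher in liver, with a median of -10.37. Cyp2c11 read 2.59, 1.90, 1.90 and 1.91 in adipose tissue, against 14.42, 14.45, 14.40 and 14.46 in liver. Cyp2c13, Cyp2c22 and Cyp2d2 differed by -12.02, -11.98 and -11.81. The P450s not called were Cyp1b1 (7.82 in adipose tissue and 5.62 in liver), Cyp4b1 (9.83 and 6.43) and Cyp2d4 (7.72 and 8.85).

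Of 19 conjugating enzymes 8 were higher in liver, against 4.90% of all genes. The largest differences were those of Sult1c3 (-11.17) and Ugt2b15 (-9.95). Gstp1, a glutathione transferase, was the 1 higher in adipose tissue, at 12.49 ± 0.13 against 8.11 ± 0.17 in liver. Sult1e1, which inactivates oestrogen, read 6.18, 5.58, 9.21 and 5.35 in adipose tissue, with array 3 highest, against 14.74 to 14.90 in liver.

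Of 14 liver transcription factors 12 were higher in liver and 0 in adipose tissue, with a median of -6.51. Hnf4a, the nuclear receptor that holds hepatocyte identity, read 2.07, 2.06, 2.06 and 2.03 in adipose tissue, against 12.37, 12.84, 12.82 and 12.61 in liver. Creb3l3, a membrane-bound factor of fasting and lipoprotein genes, differed by -9.48, Prox1 by -8.14 and the xenobiotic receptor Nr1i2 (PXR) by -7.21. Onecut1 read 11.75, 7.24, 7.91 and 8.16 in liver, against 2.07 to 2.14 in adipose tissue.

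RefSeq (GRCr8) promoters, from 250 bases before to 50 after the start of transcription, were found for 842 of the 1110 adipose-higher genes, 566 of the 696 liver-higher genes and 11700 of all 14217. The median GC content was 62.5% in the adipose-higher genes, 55.7% in the liver-higher genes and 60.0% in all measured genes, beside 52.3% over all 27457 promoters of the RefSeq table. Promoters with at most 5 CpG made up 15.1%, 38.2% and 16.7%, beside 41.9% over the RefSeq table. TATAAA on the gene's strand was found in 6.06%, 10.2% and 5.80%, beside 9.08%. The GC-box letters CCGCCC, on either strand, were found in 64.0%, 45.4% and 57.5%, beside 34.9%. TTGC followed directly by GCAA, the palindrome that C/EBP factors bind, was found in 0.119%, 0.353% and 0.256%, beside 0.197%. AGGTCA repeated after any 1 base, on either strand, was in 0 promoters of either called group and in 0.0342% of all measured genes, beside 0.0583% over the RefSeq table. The motif that hepatocyte nuclear factor 1 binds, searched on both strands as GTTAAT, then any base, then ATT, was in 0 of the 842 adipose-higher promoters, in 13 of the 566 liver-higher ones (2.30%) and in 34 of the 11700 (0.291%). Over the RefSeq table the share was 0.346%. A match is a description of the letters and no evidence of binding. The motifs were picked after the values had been seen.

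The matches in the 7 genes of the 13 that differed by more than 8 log2 units are shown 5′ to 3′ on the gene's strand, in 40 bases of GRCr8 each, to show how near the start they lie. Capitals mark the motif, on either strand.
Plg (chr1:50915453-50915492, minus strand): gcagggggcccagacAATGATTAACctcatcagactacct
Lipc (chr8:80516276-80516315, minus strand): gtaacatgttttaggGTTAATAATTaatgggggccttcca
Serpina4 (chr6:128764690-128764729, plus strand): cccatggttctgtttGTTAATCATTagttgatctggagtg
C5 (chr3:38759478-38759517, minus strand): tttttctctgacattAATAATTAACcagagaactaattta
Hgfac (chr14:79938834-79938873, minus strand): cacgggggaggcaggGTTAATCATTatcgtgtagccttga
Gc (chr14:18916046-18916085, plus strand): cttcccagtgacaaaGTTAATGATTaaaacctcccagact
Prodh2 (chr1:94880926-94880965, plus strand): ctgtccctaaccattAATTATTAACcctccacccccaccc

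Counted from the start of transcription, the first base of the motif lay at -71 in Plg, -15 in Lipc, -77 in Serpina4, -34 in C5, -85 in Hgfac, -194 in Gc and -146 in Prodh2. Plasminogen (Plg) read 2.12 to 2.19 in adipose tissue and 14.51 to 14.54 in liver. Lipc, the lipase of liver sinusoids, read 2.32 to 2.42 in adipose tissue and 13.29 to 13.41 in liver. Serpina4 (kallistatin) averaged 2.88 in adipose tissue and 13.52 in liver, complement C5 averaged 2.98 and 12.77, and Hgfac, the activator of hepatocyte growth factor, 2.13 and 11.92. Gc, the vitamin D-binding protein, averaged 6.27 in adipose tissue and 15.70 in liver. The proline catabolic enzyme Prodh2 averaged 3.39 in adipose tissue and 12.02 in liver. The other 6 genes with a match were Sult2a6 (-7.29), C5l1 (-6.99), Rassf6 (-4.84), Afp (-4.80), Igfbp1 (-4.47) and Golt1a (-3.95).

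Pairs of related genes, chosen with earlier results known, were compared between the tissues gene by gene. Of 16 pairs 12 had both members measured. For glucose entry, Slc2a4 averaged 10.00 ± 0.47 in adipose tissue and 2.27 ± 0.057 in liver, while Slc2a2 (GLUT2) averaged 2.12 ± 0.024 and 12.81 ± 0.23. In 7 pairs both members were called, in opposite directions. The same held for glycogen synthase, with Gys1 at 7.90 in adipose tissue and 2.68 in liver, and Gys2 at 4.13 and 9.96. It held for fatty acid carriers, where Fabp1 read 6.60, 5.23, 4.34 and 4.34 in adipose tissue, against 15.41 to 15.67 in liver, in reverse of Fabp4.

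Glycerol channels, lipases, CIDE proteins and carnitine palmitoyltransferases made up the rest of the 7. Aqp7, through which fat releases glycerol, averaged 12.66 in adipose tissue and 2.15 in liver, and Aqp9, through which liver takes it up, 1.96 and 12.12. Lpl and Lipc differed by 8.63 and -10.95. Cidec, which fuses droplets, was 13.96 in adipose tissue and 9.72 in liver, and Cideb 2.33 and 11.59. Cpt1b, the muscle-type gatekeeper of fat oxidation, was 8.39 in adipose tissue and 2.89 in liver, whereas Cpt1a, the liver type, was 8.48 and 11.71.

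In 4 pairs only 1 member was called. Pparg differed by 9.69, and Ppara stood at 1.81 in adipose tissue and 3.46 in liver. Mat1a, the methionine enzyme of adult liver, was 3.09 in adipose tissue and 14.12 in liver, and Mat2a 10.74 and 8.38. Slc27a5 differed by -11.64, and Slc27a1 was 9.75 in adipose tissue and 7.05 in liver. Fbp1 was higher in liver, and Fbp2 lay near background in both tissues, at 2.44 in adipose tissue and 2.60 in liver. In the last pair neither desaturase was called. Scd2 averaged 9.36 ± 0.58 in adipose tissue and 5.43 ± 0.36 in liver, and Scd 12.28 ± 0.71 and 14.50 ± 0.22.

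In 4 pairs 1 member was not measured here. Hexokinase 2 (Hk2) averaged 7.46 ± 0.36 in adipose tissue and 2.09 ± 0.025 in liver. Aldoa was 13.10 ± 0.17 and 9.18 ± 0.11, close to the size threshold at 3.08 under the scaling that made it smallest, and not called in restricted rats or against the fed livers of day 10. Pklr, the liver pyruvate kinase, read 1.67 to 1.70 in adipose tissue and 12.41 to 13.13 in liver. The liver glutaminase Gls2 was 5.49 in adipose tissue and 12.15 in liver.

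**Figure D4:**
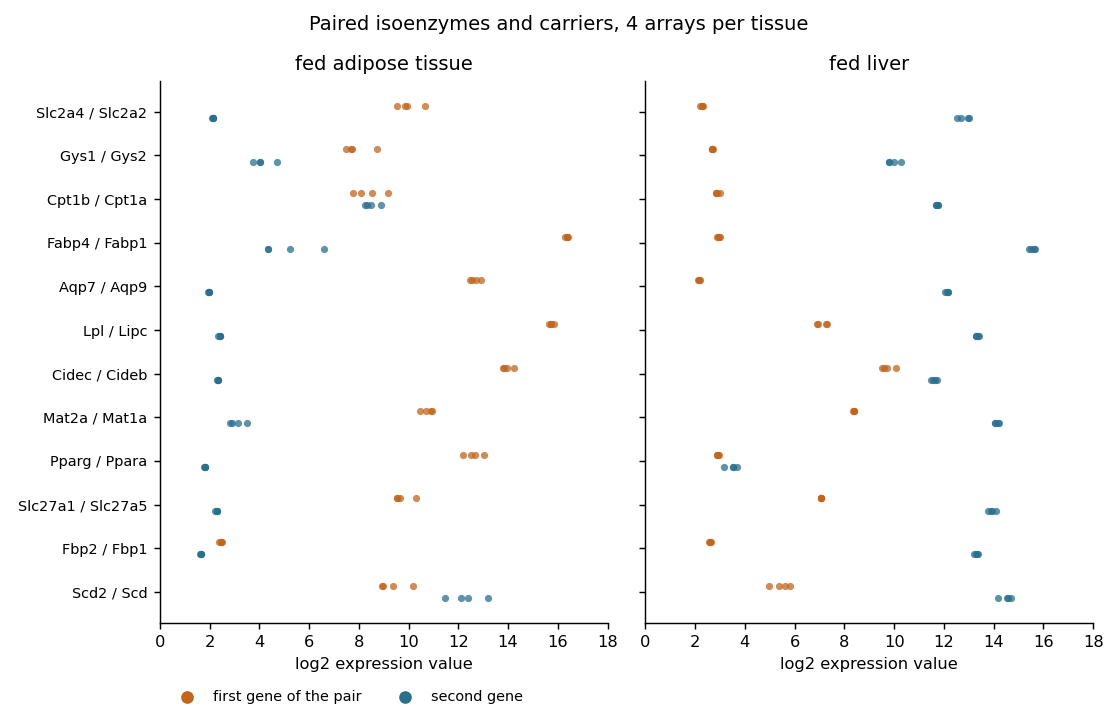
Log2 expression values (horizontal axis) of 12 pairs of related genes on the 4 fed adipose arrays (left) and the 4 fed liver arrays (right), 1 dot per array, with the first gene of each pair in orange and the second in blue. Each gene is to be read across the 2 panels, since levels of different probe sets cannot be ranked, and in 7 pairs the first gene is called higher in adipose tissue and the second higher in liver.

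Of 16 fatty acid synthesis genes 14 were not called, 2 were higher in liver and 0 in adipose tissue, with a median difference of -1.23. The shares over all genes were 4.90% higher in liver and 7.81% higher in adipose tissue. At a size threshold of 2 the counts were 4 higher in liver and 1 in adipose tissue. Fasn, the fatty acid synthase, read 13.71, 13.33, 13.32 and 14.02 in adipose tissue, against 12.59, 13.33, 13.69 and 13.78 in liver, so the groups overlapped. Thrsp (Spot 14) averaged 15.25 in adipose tissue and 15.09 in liver, and Srebf1, the factor that drives these genes, 12.17 and 12.18. Fads2, the delta-6 desaturase, was higher in liver, with 1.75 to 1.79 in adipose tissue against 10.14 to 11.08 in liver, and so was Mlxipl (ChREBP, the carbohydrate-sensing factor), with 4.16 to 6.00 against 9.25 to 9.50. In triglyceride synthesis Agpat1 was higher in adipose tissue (8.12 and 3.28 in liver), Lpin3 was higher in liver (2.37 in adipose tissue and 6.93 in liver), and 9 of 11 were not called. Agpat1 was not called against the fed livers of day 10 or in restricted rats. Dgat2, which makes the final ester bond, averaged 13.98 in adipose tissue and 12.24 in liver.

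Of 17 genes of fatty acid oxidation and ketone bodies 2 were higher in adipose tissue, 3 in liver and 12 were not called. The shares over all genes were 7.81% higher in adipose tissue and 4.90% higher in liver. Bdh1, which makes beta-hydroxybutyrate, read 2.37 to 2.40 in adipose tissue and 11.25 to 11.36 in liver, and Oxct1, which lets a tissue burn ketones and which hepatocytes lack, read 11.59 to 12.28 in adipose tissue and 3.54 to 3.62 in liver. The peroxisomal enzyme Ehhadh averaged 6.80 ± 0.74 in adipose tissue and 12.27 ± 0.27 in liver. The 12 that were not called differed by -2.08 (Acadm) to 1.26 (Eci1).

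Hormone axes had members on both sides. Among growth hormone and IGF genes 4 of 16 were higher in adipose tissue and 3 in liver, beside 7.81% and 4.90% of all genes. Igfals, which holds IGF in the blood, averaged 1.68 ± 0.016 in adipose tissue and 11.62 ± 0.13 in liver, and Igfbp1, which the liver secretes when insulin is low, 2.23 ± 0.034 and 6.71 ± 0.95. Igfbp6 and the receptor Igf1r were higher in adipose tissue by 7.11 and 5.93. Igf2 differed by 5.86 on the brightest of its 4 probe sets, and was not called when their median was used. Igf1 itself read 14.47 to 14.63 in adipose tissue and 13.66 to 13.97 in liver and was not called. Of 17 clock genes 1 was higher in adipose tissue, a share near the 7.81% of all genes, and 0 in liver. Against the fed livers of day 10 these counts were 3 and 2. The 1 was Bhlhe41, at 10.61 ± 0.72 against 2.53 ± 0.023 in liver. The mean over the clock list was 8.28 to 9.01 on the adipose arrays, 6.49 on liver array 1 and 6.89 to 6.97 on the other livers.

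Of 10 macrophage and Kupffer cell genes 8 were not called. Csf1r, the receptor macrophages depend on, was 11.53 in adipose tissue and 8.15 in liver, and the complement subunit C1qa was 11.70 and 10.30. Clec4f, a lectin of rodent Kupffer cells, read 1.84 to 1.89 in adipose tissue and 10.69 to 11.05 in liver. Cd5l, a macrophage-secreted protein, read 2.68 to 2.76 in adipose tissue and 10.40 to 10.74 in liver. These 2 were higher in liver. Cd4 was the 1 of 9 lymphocyte genes called, with 7.39 to 7.67 in adipose tissue and 2.20 to 2.30 in liver, while the T cell receptor subunits Cd3d and Cd3g were near background in both. Of 9 MHC class II genes 1, RT1-DMa, was higher in adipose tissue (8.74 ± 0.30, against 2.88 ± 0.30 in liver). That call was not made against the fed livers of day 10, which stood 3.51 above those of day 4. In both the lymphocyte and the MHC class II list, 1 of 9 is near the 7.81% of all genes called higher in adipose tissue.

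Stellate and bile duct markers were mixed. Lrat, which stores vitamin A, was 3.15 in adipose tissue and 7.98 in liver. Reln read 2.47, 2.47, 4.82 and 2.38 in adipose tissue, with array 3 highest, against 7.74 to 8.42 in liver. Epcam was 2.63 and 8.03. Des and Krt19 were higher in adipose tissue, by 5.33 and 6.81. The simple-epithelium keratins Krt18 and Krt8, which hepatocytes carry, differed by -6.71 and -5.25.

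Housekeeping lists had 0 calls. None of 24 cytosolic ribosomal proteins, 23 proteasome subunits and 27 genes of the respiratory chain and citric acid cycle was called. Their median differences were 1.15, 0.34 and 0.46 in the deposited values, beside 0.49 for all genes. After subtracting array medians they were 0.31, -0.50 and -0.38, beside -0.34 for all genes, so the sign for proteasome and respiratory chain depends on the scaling. Citrate synthase (Cs), with 12.79 ± 0.30 in adipose tissue and 9.50 ± 0.15 in liver, had the largest difference of the 3 lists.

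**Figure D5:**
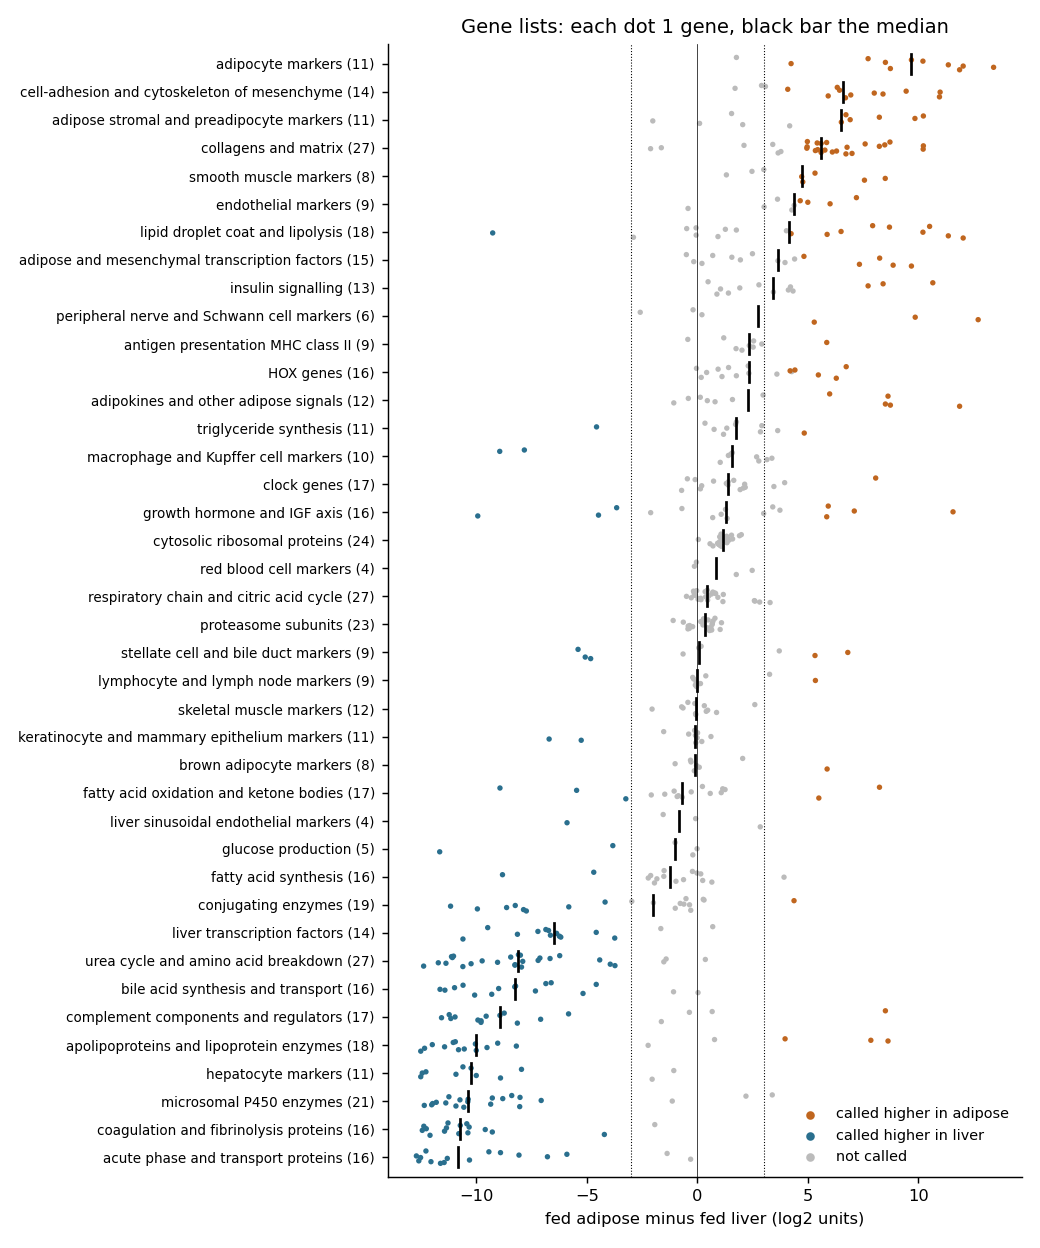
Difference between fed adipose tissue and fed liver (horizontal axis, log2 units, adipose minus liver) for the measured members of 40 gene lists (rows, number measured in brackets), 1 dot per gene, with a bar at each list's median and dotted lines at -3 and 3. Adipocyte, matrix and mesenchymal lists lie to the right, plasma protein, P450, bile acid and amino acid lists to the left, and ribosomal, proteasome and respiratory chain lists near 0.

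Most called genes averaged below 3.5 in the other tissue. Of the 1110 adipose-higher genes 788 (71.0%) averaged below 3.5 in liver and 27 reached 8 there. Of the 696 liver-higher genes 455 (65.4%) averaged below 3.5 in adipose tissue and 34 reached 8. The level of 3.5 lay above the medians of the liver arrays (3.17 to 3.24), so most probe sets on a liver array were also below it. It lay under the medians of the adipose arrays (4.01 to 4.06). Most of the differences are therefore taken as lower bounds, and their sizes do not rank the groups. The 100 genes of highest value had 17 in common (17.0% of each list), and the top 500 had 185 (37.0%). Of the top 100, 30 in adipose tissue and 68 in liver were called higher in that tissue, beside 7.81% and 4.90% of all genes. The top genes were taken for their high values in that tissue, which favours such calls.

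The same comparison was made in the feed-restricted rats of day 4, whose arrays shared the 2 normalization sets but no animal group with the fed rats. There 2177 probe sets were higher in adipose tissue and 1068 in liver. Of the 2098 adipose-higher probe sets in fed rats 1956 were also called (93.2%, and 89.8% of the 2177), and of the 1053 liver-higher ones 973 (92.4%, and 91.1% of the 1068). None was called in the opposite direction in either count. With the fed livers of day 10 in place of those of day 4, 1859 (88.6%, and 86.9% of 2139) and 1012 (96.1%, and 83.7% of 1209) were also called, and 0 in the opposite direction. These comparisons share sets or arrays and are not independent of each other.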

How the data were processed

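Total RNA was hybridised to Affymetrix rat genome arrays. The log2 values were used as the authors deposited them in the series' value table. Per the series description, the authors pre-processed the adipose arrays, the day 4 livers and the day 10 livers as 3 separate groups. The submitters' processing notes name R 2.4.1, affy 1.12.2, RMA and GCRMA 2.6.0, without saying which method made these values. The arrays give no counts, and their number (4 per tissue) limits the precision.

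Of 31042 probe sets, 20826 had 1 gene symbol in the platform annotation, 436 had several and 9780 had none. The 20826 probe sets with 1 symbol gave 14217 genes. Of those probe sets 20758 matched a current RefSeq gene and took its symbol, and the rest kept the platform's symbol. The fit used limma 3.58.1 in R 4.3.3 (lmFit, eBayes, Benjamini-Hochberg adjustment over all 31042 probe sets) on the 8 arrays after quantile normalization. Differences in the text are of deposited values, and adjusted p-values come from that fit. Summaries used Python 3.11.15, pandas 2.3.3, numpy 2.4.6 and matplotlib 3.10.9.

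Named genes were the 15 largest differences in each direction, ranked by the smallest of the 3 scalings, up to 4 called members per list with up to 2 of the other direction (up to 2 members where none was called), all members of the pairs, and the 10 genes of largest SD in each tissue. Others were chosen after their values were seen. The comparison, the 40 gene lists and the 16 pairs were chosen with earlier results of these data known. Same-numbered adipose and liver arrays deviated from their group means with correlations of -0.0713 to 0.0436, and the numbers were not used as pairs. Low correlations cannot show whether same-numbered arrays came from the same rat. Alternatives were other scalings and size thresholds, a filter on dim probe sets, the median over a gene's probe sets, restricted rats, day 10 livers, a replicate block and leaving out each array.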

Additional observations from a re-analysis of the deposited data

Results flagged for a closer look

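In 41 of 295 groups of 4 arrays with at least 1 value of 3.5 or more (13.9%), 1 array stood so far from the nearest other that the gap, as a share of the group's range, exceeded Dixon's 95% critical value for 4 samples. Chance alone flags about 1 group in 20. That rate is no yardstick for these groups, since they include genes named for their large SD within a tissue, among them Hoxa9, Hoxa10, Mmrn1, Cldn11, Col11a1, Hamp, Cish, Alox15, Nr0b2 and Noct. The shares are given here, and no explanation was tested.

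Adipose array 1 was high for Serpina3l (0.964), Serpina1 (0.941), Cyp1a1 (0.939), Ahsg (0.903) and the means of the hepatocyte markers (0.886) and the microsomal P450 enzymes (0.886). It was low for Cd4 (0.928). Adipose array 3 was high for Hoxa9 (0.983), Reln (0.964), Col11a1 (0.945), Hoxa10 (0.902), Cldn11 (0.895), Sult1b1 (0.880), Lum (0.864), Mmrn1 (0.847) and Vwf (0.838), and low for Mbp (0.894). Adipose array 4 was high for Noct (0.936), Mlxipl (0.875), Col15a1 (0.875), Pmp22 (0.856), Slc37a4 (0.844) and Bhlhe41 (0.841), and low for Gls2 (0.898), where all 4 arrays lay between 5.45 and 5.50.

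Liver array 1 was high for Cish (0.854) and the mean of the growth hormone and IGF axis (0.865), and low for Nr0b2 (0.840), Noct (0.836) and the mean of the clock genes (0.841). Liver array 2 was high for Alox15 (0.984), Alas2 (0.887), Hbb (0.832), Itih4 (0.865) and the mean of the red blood cell markers (0.896). It was low for Lpin3 (0.928), Hamp (0.907) and the means of insulin signalling (0.889) and of acute phase and transport proteins (0.855), a list that holds Hamp. Liver array 3 was low for Igfals (0.855) and high for Oxct1 (0.921), where all 4 liver arrays lay between 3.54 and 3.62. Liver array 4 was high for Psmd1 (0.845).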

How the results depend on the processing

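The scaling and the size threshold moved the counts most. With deposited values alone, 4160 probe sets were higher in adipose tissue, and with quantile-normalized values alone 1721 were higher in liver, against 2098 and 1053 under the joint rule. A threshold of 2 log2 units gave 3476 higher in adipose tissue and one of 4 gave 1295. Leaving out 1 array at a time gave 2015 to 2157 higher in adipose tissue and 1046 to 1067 higher in liver. With the replicate number as a block the counts were 2096 and 1053. Whether same-numbered arrays came from the same rat is not settled by the labels. Settings chosen after the data were seen gave 1962 and 1039 (adipose arrays 2 and 4 alone) and 2162 and 1049 (liver arrays 2 and 4 alone). Of named genes, taken at the scaling with the smallest difference, Scd changed sign to 3.68 in restricted rats, against -2.22 in fed rats, and Igf2 to -0.10 over the median of its probe sets, against 5.02. The cause was not tested. Over all alternatives, named genes kept their direction and side of the rule in 3312 results, lost the call in 50, gained it in 12 and changed sign in 2. The 3312 include uncalled genes that stayed uncalled. They also include results under a single scaling or a threshold of 2 log2 units, which are looser than the joint rule and could not lose a call. Differences against values below 3.5 are limited by signal over background.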
